A study of Saccharomyces pastorianus with 18 samples.

Results

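S. cerevisiae chromosomes V, VII and XI of the lager yeast S. pastorianus hold 1254 of the 11979 features in the count table, 323 on V, 583 on VII and 348 on XI. All features on these 3 chromosomes of the S. cerevisiae sub-genome were taken and ordered by their start position. The chromosomes were chosen by the counts of these same libraries, because only parts of them were expressed in 1 of the 2 strains. The strain difference along them is therefore given as a description, without a test. Of the 1254 features, 855 have a partner of the same name on S. eubayanus V, VII or XI, 208 on V, 403 on VII and 244 on XI.

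Lager yeast is a hybrid of S. cerevisiae and the cold-tolerant S. eubayanus, and most genes are present as 1 copy from each parent species. Strains of the Saaz type, to which CBS1538 belongs, are known to have fewer S. cerevisiae chromosomes than Frohberg strains such as W34/70. Hybrid chromosomes, in which an S. cerevisiae part is joined to an S. eubayanus part, are known in both types. RNA counts show which copy of a gene is transcribed. A copy that is missing from the genome and a copy that is present without RNA cannot be told apart by them, nor can gene copy number and RNA per copy.

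RNA was sequenced from CBS1538 11.1 and W34/70 9.7, mutants obtained by exposing the parent strains to 20, 40 or 100 µg/mL radicicol, which blocks the Hsp90 chaperone. Selection was on plates with an analogue of phenylalanine, B2TA at 75 µg/mL or PFPA at 200 µg/mL. Each mutant is a line from 1 resistant colony, and the labels do not say which dose or analogue gave it. Each strain was sampled in 3 conditions with 3 libraries each: on day 2 and on day 4 of a fermentation in 10% wort with 1 mM ZnSO4 at 13 °C, and while growing exponentially at 20 °C on 1% dextrose and 1% maltose in minimal medium, whose nitrogen source was 0.5% ammonium sulfate. The titles of the CBS1538 11.1 day 2 libraries name the mutant and their strain field names the parent, so each comparison with day 2 in this strain carries that doubt.

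Totals were 5266324 to 16571345 counts over the 9 libraries of CBS1538 11.1 and 12782267 to 19467656 over the 9 of W34/70 9.7. The 3 chromosomes took 4.64% to 5.56% of the counts in CBS1538 11.1 and 16.2% to 19.6% in W34/70 9.7. Levels along the chromosomes are CPM, counts scaled to the library total, and a feature was called expressed in a library at 1 CPM or more. A library in which a feature had no count allows at most 3 counts, which is 0.181 to 0.570 CPM over the CBS1538 11.1 libraries, for counting error only. Both strains had libraries that stood apart in ways that touch these chromosomes. W34/70 9.7 day 2 replicate 2 and day 4 replicate 1 had almost no RNA from S. eubayanus VII. CBS1538 11.1 day 2 replicate 2 and minimal medium replicate 2 had raised counts on features that were silent in the other 7 libraries of the strain. Counts of called members are given with and without these libraries, and other results only where stated.

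Expressed and silent features lay in long separate stretches in CBS1538 11.1, and no such pattern was present in W34/70 9.7. On V, 50.8% to 56.3% of features were expressed in the CBS1538 11.1 libraries, against 79.9% to 84.5% in the W34/70 9.7 libraries. On VII the shares were 15.1% to 21.3% in CBS1538 11.1 and 85.1% to 89.0% in W34/70 9.7. On XI they were 57.5% to 63.2% in CBS1538 11.1 and 88.8% to 91.4% in W34/70 9.7. The ranges of the strains did not overlap on any of the 3 chromosomes.

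Break points were placed in each library on its own, over the features that averaged 5 CPM or more in the other strain, by finding the stretches with the fewest misfits at a cost of 5 misfits per switch. This gave 2 break points on V, 1 on VII and 2 on XI in every CBS1538 11.1 library. The V and XI break points fell in the same intervals in 9 of 9 libraries, and the VII break point in the same interval in 8 of 9. Each is given as the gap between the last feature of a stretch and the first of the next. Counts per feature cannot tell a break in that gap from a break inside a flanking gene. The median number of misfits per CBS1538 11.1 library was 3 of 250 features on V, 9 of 481 on VII and 12 of 301 on XI. The 5 break points divide the 3 chromosomes into 8 stretches, 4 expressed with 567 features and 4 silent with 687. The search gave no break point in W34/70 9.7, over 152 features on V, 83 on VII and 171 on XI. These hardly covered the silent stretches, where only 11 features averaged 1 CPM or more in CBS1538 11.1, so a break there could hardly be placed. At 1 CPM, 583 to 608 of the 687 features on these stretches were expressed in the W34/70 9.7 libraries.

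**Figure D1:**
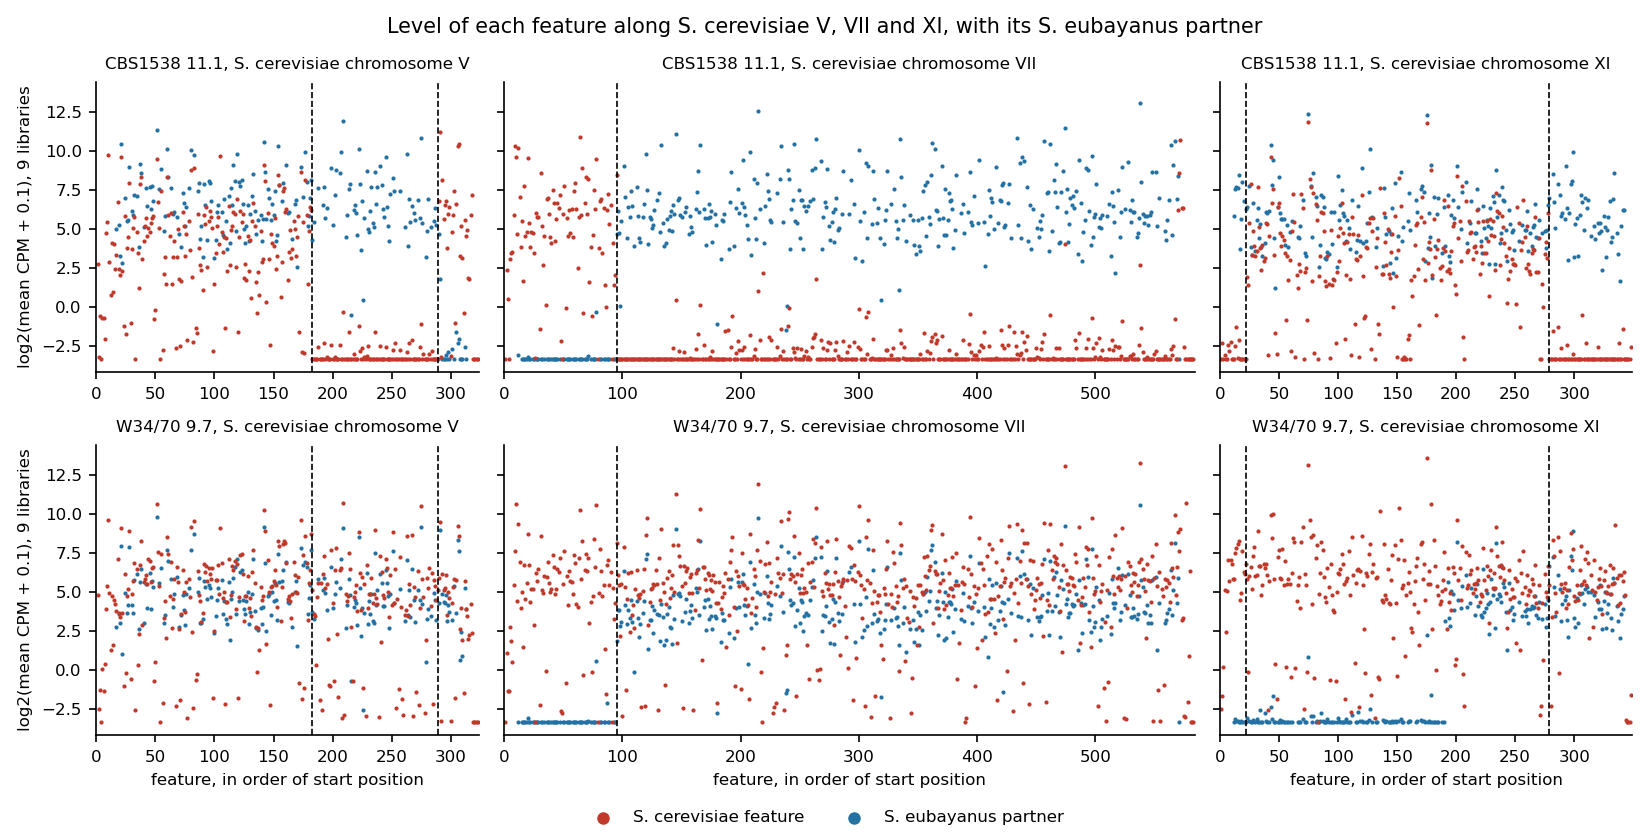
Mean level of each S. cerevisiae feature (red) and of its same-named S. eubayanus partner (blue) over 9 libraries, on a log2(CPM + 0.1) scale, in order of start position, for CBS1538 11.1 (top) and W34/70 9.7 (bottom). Dashed lines mark the 5 break points of CBS1538 11.1, red points on the bottom line have no count, and the red features are silent over V stretch 2, VII stretch 2, XI stretch 1 and XI stretch 3 in CBS1538 11.1 and expressed in W34/70 9.7.

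Chromosome V was expressed at both ends and silent in between. V stretch 1 ran over 182 features and 307 kb from the left end to RPS24A, which encodes a protein of the small ribosomal subunit. V stretch 2, silent, ran over 107 features and 196 kb from YOS1, which acts in transport from the endoplasmic reticulum, to GCG1, a glutathione-degrading enzyme. V stretch 3, expressed, held the last 34 features over 71.1 kb, from CHD1, a chromatin remodeller, to the right end.

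The first V break point lies in a gap of 456 bp between the end of RPS24A (YER074W) at 307196 and the start of YOS1 (YER074W-A) at 307653. RPS24A ranged from 24.7 to 122 CPM with a median of 79.3 in CBS1538 11.1, against 184 to 808 CPM with a median of 315 in W34/70 9.7. YOS1 had no count in the 9 CBS1538 11.1 libraries, against 11.1 to 72.3 CPM with a median of 33.6 in W34/70 9.7. The S. eubayanus copy of YOS1 was expressed in both strains, at 7.79 to 29.4 CPM in CBS1538 11.1 and 1.2 to 25.1 CPM in W34/70 9.7. The copy without RNA at this interval was thus the S. cerevisiae copy. Before RPS24A, the acetaldehyde dehydrogenase gene ALD5 (YER073W) had 13.1 to 265 CPM in CBS1538 11.1 and 35.6 to 159.6 CPM in W34/70 9.7, and VTC1 (YER072W), a subunit of the vacuolar polyphosphate polymerase, had 14.6 to 39.8 CPM in CBS1538 11.1 and 28.1 to 74.2 CPM in W34/70 9.7. After YOS1, the phosphatase gene PTP3 (YER075C) and YER076C had no count in CBS1538 11.1, against 6.96 to 20.8 and 7.51 to 13.7 CPM in W34/70 9.7.

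The second V break point lies in a gap of 1609 bp between GCG1 (YER163C), which ends at 503782, and CHD1 (YER164W), which starts at 505392. CHD1 had 51.7 to 182 CPM with a median of 101 in CBS1538 11.1, against 29.7 to 77.5 CPM with a median of 63.4 in W34/70 9.7. PAB1 (YER165W), the poly(A)-binding protein gene next to it, had 1689 to 3100 CPM with a median of 2149 in CBS1538 11.1, against 399 to 1258 CPM with a median of 648 in W34/70 9.7. Both expressed genes were higher in CBS1538 11.1, PAB1 without overlap between the strains. On the silent side, SPT2 (YER161C), a histone chaperone, RAD4 (YER162C), which recognises damaged DNA, and GCG1 had no count in CBS1538 11.1, against medians of 42.3, 18.2 and 37.6 CPM in W34/70 9.7.

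The S. eubayanus chromosome V mirrored this second break. In the 9 CBS1538 11.1 libraries its features turned silent at DNF1, a phospholipid flippase that starts at 511238, and the last expressed feature before the break was the S. eubayanus PAB1, which ends at 510615. The silence reached the right end in 8 of the 9 libraries. In minimal medium replicate 2, one of the raised libraries, the features near the end were called expressed again from 555292 on, and this held in 0 of the 9 libraries with features chosen by their S. cerevisiae copy. The S. eubayanus PAB1 had only 2.13 to 4.86 CPM in CBS1538 11.1, against 229.9 to 745 CPM in W34/70 9.7. The S. eubayanus CHD1 still had 9.72 to 54.1 CPM in CBS1538 11.1, against 11.2 to 27.8 CPM in W34/70 9.7. From CHD1 to the right end, CHD1 was the only pair whose S. eubayanus copy averaged at least 5 CPM in both strains. That copy averaged 25.2 CPM in CBS1538 11.1 and 19.7 CPM in W34/70 9.7. PAB1 was counted on both copies too, but its S. eubayanus level in CBS1538 11.1 was low. Whether those counts came from reads of the S. cerevisiae copy was not tested. The treatment of reads that match both copies is not given.

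Chromosome VII was expressed only at its left end. VII stretch 1 held 95 features over 177 kb from COS12 to XRN1, the cytoplasmic exonuclease that degrades decapped mRNA. VII stretch 2, silent, held the other 488 features over 909.9 kb. The break point was placed in a gap of 586 bp between XRN1 (YGL173C), which ends at 180113, and NUP49 (YGL172W). NUP49, a nuclear pore protein gene, starts at 180700. XRN1 had 275 to 432 CPM with a median of 345 in CBS1538 11.1, against 171 to 388 CPM with a median of 281 in W34/70 9.7. NUP49 had no count in CBS1538 11.1, against 45.0 to 97.8 CPM with a median of 72.0 in W34/70 9.7. ROK1 (YGL171W), an RNA helicase gene for ribosome assembly, and SPO74 (YGL170C), a sporulation gene, likewise had no count in CBS1538 11.1, against 9.39 to 97.5 and 0.506 to 9.26 CPM in W34/70 9.7.

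In CBS1538 11.1 day 2 replicate 1, the library with the fewest counts, the VII break point was placed earlier. It fell between SAE2, which ends at 174322, and BUD13, which starts at 174545. XRN1 was expressed in that library and so counted there as a misfit. SAE2 and BUD13 were both low. SAE2 (YGL175C), which processes DNA ends in recombination, had 0.540 to 5.02 CPM in CBS1538 11.1 and 6.41 to 13.1 CPM in W34/70 9.7. BUD13 (YGL174W), a splicing and pre-mRNA retention factor, had 0 to 8.64 CPM in CBS1538 11.1 and 9.47 to 31.0 CPM in W34/70 9.7.

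On the S. eubayanus chromosome VII, both strains were silent from the left end up to BUD13, which ends at 177307, and expressed from XRN1, which starts at 177507, in 9 of 9 CBS1538 11.1 libraries and 7 of 9 W34/70 9.7 libraries. The other 2 were the W34/70 9.7 libraries without RNA from S. eubayanus VII. In VII stretch 2 the S. eubayanus copies held 0.109% and 0.0849% of the counts of the pairs in those 2 libraries, against 21.5% to 25.3% in the other 7. In VII stretch 1 the S. cerevisiae copy thus gave 99.5% to 100.0% of the pair counts in CBS1538 11.1, with a median of 99.9% in W34/70 9.7. XRN1 itself was counted on both copies in CBS1538 11.1, with 1.49 to 48.0 CPM on the S. eubayanus copy, against 0 to 9.62 CPM in W34/70 9.7. Whether those counts came from reads of the S. cerevisiae copy, or from a break inside XRN1, was not tested.

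Chromosome XI was silent at both ends and expressed between them. XI stretch 1, silent, held 22 features over 55.2 kb, up to EAP1, which encodes a protein that binds the translation factor eIF4E. XI stretch 2, expressed, held 256 features over 457 kb from TOR2, a kinase of growth control, to KAE1, needed for a universal tRNA modification. XI stretch 3, silent, held the last 70 features over 148 kb and began with GAP1, the general amino acid permease.

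The first XI break point lies in a gap of 332 bp between EAP1 (YKL204W), which ends at 55602, and TOR2 (YKL203C), which starts at 55935. EAP1 had no count in CBS1538 11.1, against 66.2 to 177 CPM with a median of 109.7 in W34/70 9.7. TOR2 had 1.14 to 7.29 CPM with a median of 4.52 in CBS1538 11.1, against 47.1 to 73.2 CPM with a median of 56.0 in W34/70 9.7. TOR2 was therefore counted as expressed by a small margin, and its level lay far under that of W34/70 9.7 in every library. MNN4 (YKL201C), a regulator of mannose phosphate on cell wall proteins, was clearly expressed on that side, at 17.9 to 92.6 CPM in CBS1538 11.1 and 27.4 to 119 CPM in W34/70 9.7. On the silent side the proteasome assembly gene ADD66 (YKL206C) and the tRNA exporter gene LOS1 (YKL205W) had no count in CBS1538 11.1, against medians of 77.8 and 72.7 CPM in W34/70 9.7.

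The second XI break point lies in a gap of 1903 bp between KAE1 (YKR038C), which ends at 513159, and GAP1 (YKR039W), which starts at 515063. KAE1 had 35.0 to 97.9 CPM with a median of 67.2 in CBS1538 11.1, against 62.6 to 118 CPM with a median of 105 in W34/70 9.7. GAP1 had no count in CBS1538 11.1, against 2.03 to 115 CPM with a median of 6.22 in W34/70 9.7. The S. eubayanus GAP1 was the only copy with RNA in CBS1538 11.1, at 35.5 to 321 CPM, against 14.1 to 198 CPM in W34/70 9.7. SPC34 (YKR037C), a kinetochore protein gene, and CAF4 (YKR036C), a mitochondrial fission gene, had medians of 9.05 and 16.5 CPM in CBS1538 11.1, against 26.9 and 31.8 CPM in W34/70 9.7.

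The S. eubayanus chromosome XI was expressed throughout in CBS1538 11.1. In W34/70 9.7 it was the S. eubayanus chromosome that broke: it was silent up to DCW1, a cell wall gene that ends at 334850, and expressed from PRI2, a DNA primase subunit gene that starts at 335721, in 9 of 9 libraries. The S. eubayanus MNN4, on the silent side, had 35.2 to 962 CPM in CBS1538 11.1, against 0 to 0.0514 CPM in W34/70 9.7. The S. eubayanus TOR2 had 55.9 to 114 CPM in CBS1538 11.1, against 0 to 0.145 CPM in W34/70 9.7. In XI stretch 1 the strains thus took RNA from different copies of the same genes. Between TOR2 and DCW1, CBS1538 11.1 had RNA from both copies, outside a short run of silent S. cerevisiae features from SMY1 to STB6, and W34/70 9.7 from the S. cerevisiae copy.

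**Figure D2:**
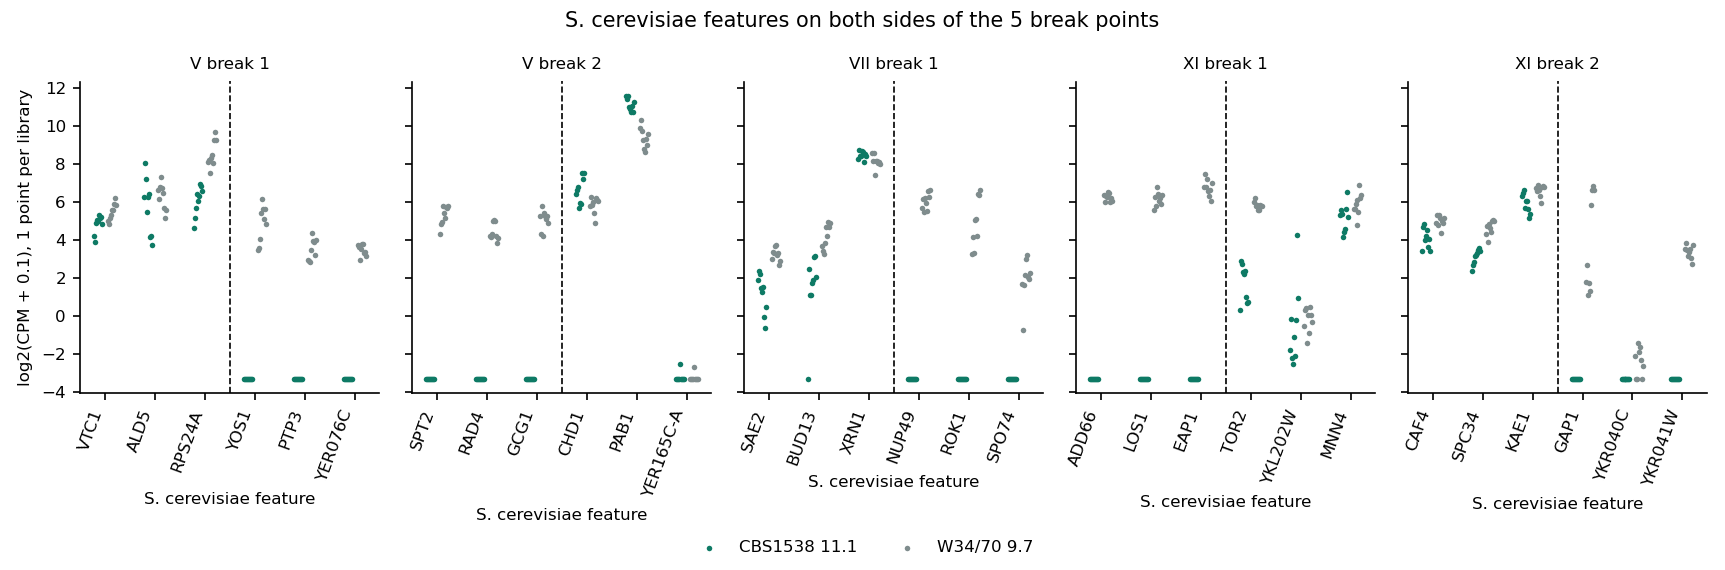
Level of the 3 S. cerevisiae features on each side of the 5 break points on a log2(CPM + 0.1) scale, 1 point per library, CBS1538 11.1 in green and W34/70 9.7 in grey. Dashed lines mark the break points, and the CBS1538 11.1 points at the bottom have no count, as for YOS1, NUP49, EAP1 and GAP1.

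Short runs inside 2 of the stretches went against their surroundings. On VII, 5 neighbouring features over 14 kb, from ZUO1 at 1061852 to MAL11 at 1075813, were expressed within the silent VII stretch 2. ZUO1, a ribosome-associated chaperone gene, had 40.6 to 113 CPM in CBS1538 11.1, against 205 to 743 CPM in W34/70 9.7. The biotin synthase gene BIO2 had 142 to 791 CPM with a median of 253 in CBS1538 11.1, against 76.7 to 331 CPM with a median of 179 in W34/70 9.7. The S. eubayanus BIO2 had no count in either strain. IMA1, an isomaltase gene, had 512 to 2564 CPM in CBS1538 11.1, against 39.9 to 1356 CPM in W34/70 9.7. The maltose regulator gene MAL13 had medians of 98.3 CPM in CBS1538 11.1 and 3.18 CPM in W34/70 9.7, and the maltose transporter gene MAL11 69.5 CPM in CBS1538 11.1 and 4.52 CPM in W34/70 9.7. IMA and MAL genes occur in several near-identical copies, so their counts may come from another locus.

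On XI, 8 features over 15.3 kb, from SMY1 at 286603 to STB6 at 301882, were silent within the expressed XI stretch 2. SMY1, a kinesin-like protein gene, DHR2, a ribosome assembly helicase gene, and STB6 had no count in CBS1538 11.1, against medians of 42.5, 48.7 and 28.6 CPM in W34/70 9.7. The splicing factor gene MUD2 reached at most 0.945 CPM and the endoplasmic reticulum chaperone gene LHS1 at most 1.76 CPM in CBS1538 11.1, against medians of 53.9 and 66.9 CPM in W34/70 9.7. The S. eubayanus LHS1, at 100.0 to 199 CPM, and the S. eubayanus MUD2, at 35.1 to 56.3 CPM, were expressed in CBS1538 11.1.

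Silence was close to complete outside the MAL11 run. Of the 687 features in silent stretches, 473 had no count in any of the 9 CBS1538 11.1 libraries and 600 had a mean under 0.1 CPM. A mean of 1 CPM or more was reached by 11 of the 687, and the 5 features of the ZUO1 to MAL11 run held 97.8% of all counts on silent stretches. The other 682 features together had 19.3 to 181 CPM in the CBS1538 11.1 libraries, or 0.0212% to 0.216% of the level of the same features in W34/70 9.7. The raised libraries differed from the rest: 48 of these features reached 1 CPM in minimal medium replicate 2 and 28 in day 2 replicate 2, against 4 to 7 in the other 7 libraries. The same 2 libraries also had the most features at 1 CPM or more on other silent S. cerevisiae chromosomes, 6.37% and 4.00% of 4127 features against 1.77% to 2.42%. What raised them was not tested.

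Where an S. cerevisiae stretch was silent, the S. eubayanus copies were higher in CBS1538 11.1 than in W34/70 9.7, and the sum of both copies differed by less than either copy. Differences here are medians over same-named pairs on a log2(CPM + 0.1) scale, averaged over the 9 CBS1538 11.1 libraries with their SD, relative to the W34/70 9.7 libraries of the same condition without the 2 that lack S. eubayanus VII. In VII stretch 2, with 336 pairs, the S. eubayanus copies differed by 1.84 ± 0.15 and the sum of both copies by -0.15 ± 0.23. In V stretch 2, with 68 pairs, the S. eubayanus copies differed by 2.07 ± 0.30 and the sum by 0.44 ± 0.24. In XI stretch 3, with 51 pairs, the S. eubayanus copies differed by 1.28 ± 0.16 and the sum by -0.62 ± 0.12, the lowest sum of the 8 stretches. In XI stretch 1, with 10 pairs, each strain expressed a single copy, and the sum differed by 0.03 ± 0.16. Higher S. eubayanus copies were not limited to silent stretches. They also differed by 1.85 over 117 pairs in V stretch 1, which was expressed, and were higher in XI stretch 2. On S. cerevisiae I, IX, X and XIV, also expressed in CBS1538 11.1, the difference was 1.05 over 733 pairs. On the other chromosomes with silent S. cerevisiae copies it was 1.25 over 2642 pairs. It was 0.0 in VII stretch 1 and -7.13 in V stretch 3. The part of silence in the rise was not tested.

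In expressed stretches the S. cerevisiae copies of CBS1538 11.1 stood at different levels relative to W34/70 9.7. XI stretch 2 was lowest, at -2.09 ± 0.26 over the 115 pairs whose S. eubayanus copy was silent in W34/70 9.7 and -1.43 ± 0.33 over the 66 pairs whose S. eubayanus copy was expressed there. V stretch 1 followed with -0.85 ± 0.20 over 117 pairs, and VII stretch 1 with 0.00 ± 0.20 over 58 pairs. V stretch 3 was the only stretch where they were higher, by 1.16 ± 0.20 over 18 pairs, and there the S. eubayanus copies differed by -7.13 ± 0.28. On S. cerevisiae I, IX, X and XIV, the other chromosomes expressed in CBS1538 11.1, the same difference was -1.25 over 733 pairs. The sums lay at 0.70 ± 0.19 in V stretch 1 and 0.59 ± 0.18 in V stretch 3, above the -0.16 ± 0.22 of those other chromosomes. With TMM factors, which rescale libraries by the bulk of the features, these differences are lower, and the sums of V stretch 2, V stretch 3, VII stretch 1 and XI stretch 1 turn to -0.15, -0.01, -0.59 and -0.56, so no direction of a sum is claimed. XI stretch 3 is then at -1.22 for the sum and 0.68 for the S. eubayanus copies, so there the sum differs by more.

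**Figure D3:**
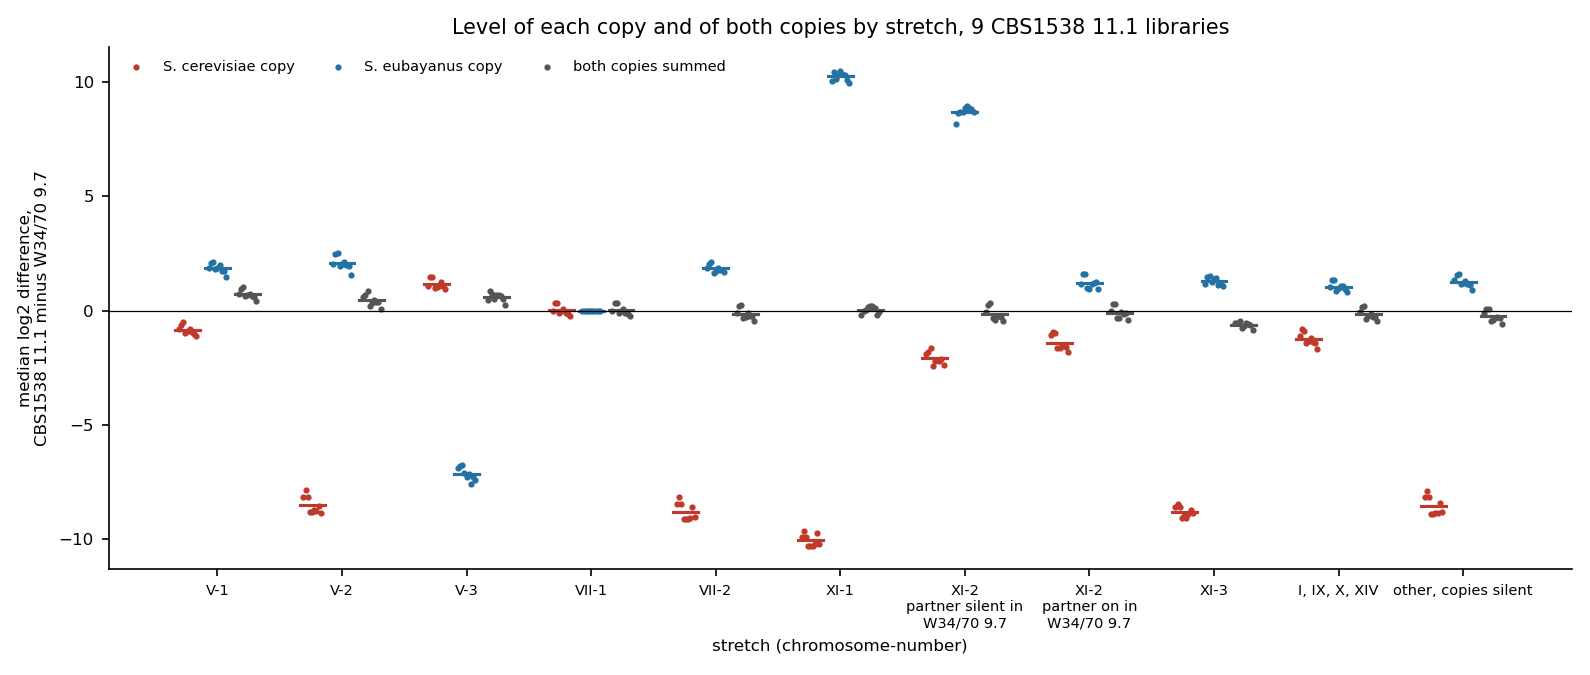
Median log2 difference over same-named pairs, CBS1538 11.1 minus W34/70 9.7, of the S. cerevisiae copy (red), the S. eubayanus copy (blue) and both copies summed (dark grey), 1 point per CBS1538 11.1 library with a bar at their mean, for each stretch and for other chromosomes. The sums lie between -0.62 and 0.70 on average, while single copies range from about -10 to 10.23.

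The balance between copies was also measured within each library. In V stretch 1 the S. cerevisiae copies held 23.3% to 27.7% of the pair counts in CBS1538 11.1, against 64.2% to 70.2% in W34/70 9.7. In XI stretch 2 they held 33.2% to 36.7% in CBS1538 11.1, against 93.8% to 96.8% in W34/70 9.7. In V stretch 3 they held 99.2% to 99.7% in CBS1538 11.1, against 59.4% to 68.1% in W34/70 9.7. The log2 ratio of the S. cerevisiae over the S. eubayanus copy, as a median over pairs, was -1.74 ± 0.11 in V stretch 1 and -1.19 ± 0.11 to -1.28 ± 0.15 in XI stretch 2 of CBS1538 11.1 (SD, n = 9). In W34/70 9.7 the ratio was 0.94 ± 0.10 in V stretch 1 and 1.40 ± 0.16 in the part of XI stretch 2 with both copies expressed. The order of the copies was thus opposite in the strains.

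The level of S. cerevisiae VII was compared between the W34/70 9.7 libraries with and without S. eubayanus VII. Relative to the other 2 libraries of their groups, the median level of S. cerevisiae VII stretch 2 differed by 0.37 and 0.18 on the log2 scale in day 2 replicate 2 and day 4 replicate 1, which lack S. eubayanus VII. In the same order they differed by 0.36 and 0.14 on S. cerevisiae V and by 0.40 and 0.18 on S. cerevisiae XI. VII stretch 1 differed by -0.14 and -0.29. VII stretch 2 thus lay near V and XI in these 2 libraries and VII stretch 1 lay under them, and none of these differences was tested. In VII stretch 1 the S. eubayanus copies held at most 0.114% of the pair counts in any W34/70 9.7 library.

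Pooled over 11 lists of functions, the listed genes lay on silent stretches about as often as all features did, while single lists differed. Of 181 genes on the 3 chromosomes that belong to 11 lists of functions, 85 lay on expressed and 96 on silent stretches. The silent share was 53.0%, against 54.8% of all 1254 features. By list it ran from 27.3% for nucleotide synthesis to 81.8% for the proteasome. For amino acid synthesis the numbers on expressed and silent stretches were 9 and 14, for sterol and fatty acid synthesis 5 and 10, for the proteasome 2 and 9, and for respiration and the tricarboxylic acid cycle 13 and 5. Means over the 9 libraries of each strain show where the RNA of a gene came from. TRP5, the last enzyme of tryptophan synthesis, averaged 0.0387 CPM on the S. cerevisiae copy in CBS1538 11.1, against 381 CPM in W34/70 9.7, while its S. eubayanus copy averaged 1372 CPM in CBS1538 11.1 and 152 CPM in W34/70 9.7. ARO2, the chorismate synthase gene of the aromatic amino acid pathway, had no S. cerevisiae count in CBS1538 11.1, against 395 CPM in W34/70 9.7, and its S. eubayanus copy averaged 877 CPM in CBS1538 11.1 and 138 CPM in W34/70 9.7. TRP2 and TRP3, which encode the enzyme that draws chorismate into tryptophan synthesis, averaged 0 and 0.00709 CPM in CBS1538 11.1, against 91.3 and 272 CPM in W34/70 9.7.

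Examples from glycolysis and membrane lipids were also taken from both kinds of stretch. The enolase gene ENO1 averaged 6.50 CPM on the S. cerevisiae copy in CBS1538 11.1, against 9725 CPM in W34/70 9.7, and the S. eubayanus copy 8600 CPM in CBS1538 11.1 and 1489 CPM in W34/70 9.7. OLE1, the fatty acid desaturase gene, averaged 1.96 CPM on the S. cerevisiae copy in CBS1538 11.1, against 3848 CPM in W34/70 9.7. On expressed stretches, ARO8, an aromatic aminotransferase gene in VII stretch 1, averaged 1928 CPM in CBS1538 11.1, against 1211 CPM in W34/70 9.7. PDA1, a pyruvate dehydrogenase subunit gene in V stretch 3, averaged 1380 CPM in CBS1538 11.1, against 381 CPM in W34/70 9.7. URA1, the dihydroorotate dehydrogenase gene of pyrimidine synthesis, has no same-named S. eubayanus partner in the table and lies in XI stretch 1. It had no count in CBS1538 11.1, against a mean of 113 CPM in W34/70 9.7.

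Changes between conditions within a strain were not used to choose the chromosomes, and they were tested with edgeR's quasi-likelihood test over all 10894 features that passed a filter on low counts. Of the 1254 features, 1131 were tested, 522 of the 567 on expressed stretches and 609 of the 687 on silent stretches. Values in these comparisons are CPM after TMM scaling, listed as replicates 1, 2 and 3. The largest rises and falls named below were picked among calls without overlap between the groups. Their lack of overlap is therefore no separate result. Log2 changes are given with their SE, and a change was called at an adjusted p (Benjamini-Hochberg, over all features tested) under 0.05.

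In CBS1538 11.1, 118 of the 522 expressed-stretch features changed between day 4 and day 2, 75 higher and 43 lower on day 4. That is 22.6%, against 16.1% of all features and 24.4% of the 6628 features that averaged 1 CPM or more in the strain (12.7% higher and 11.7% lower). With libraries scaled to their totals in place of TMM, 126 changed, 96 higher and 30 lower. V stretch 1 had 38 of 166 called, V stretch 3 10 of 26, VII stretch 1 15 of 87 and XI stretch 2 55 of 243. Leaving out day 4 replicate 1, 2 or 3 left 83, 86 or 88 calls among all members, where 144 were called with every library. On silent stretches 26 of 609 tested features were called (4.27%), all lower on day 4, and 7 without the 2 raised libraries. Most features there had almost no RNA in CBS1538 11.1. They were tested because the filter on low counts used the libraries of both strains. On expressed stretches 111 were called without those libraries, 97 of them shared with the full set. These calls come from the fit without the replicate number. With the number as a block 103 were called, 64 higher and 39 lower, 100 of them shared, and 8 on silent stretches.

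Of 13 tested genes of the list for respiration and the tricarboxylic acid cycle, 7 rose and 1 fell in CBS1538 11.1 by day 4 and 5 were not called, with a median log2 change of 1.16. COX13, a subunit of cytochrome c oxidase, had 207, 162 and 157 CPM on day 4, against 31.8, 31.3 and 54.8 CPM on day 2 (log2 change 2.15 ± 0.34, edgeR adjusted p = 0.000817). RIP1, the iron-sulfur protein of the respiratory chain's cytochrome bc1 complex, had 82.6, 63.2 and 71.3 CPM on day 4, against 11.9, 22.4 and 20.3 CPM on day 2 (1.99 ± 0.29, edgeR adjusted p = 0.000596). MDH1, the mitochondrial malate dehydrogenase gene, had 84.6, 73.9 and 62.4 CPM on day 4, against 16.5, 29.8 and 30.4 CPM on day 2 (1.52 ± 0.24, edgeR adjusted p = 0.000796). For all 3 genes every day 4 library lay above every day 2 library. The S. eubayanus copy of RIP1 rose as well, by 1.48 on the log2 scale (edgeR adjusted p = 0.00237).

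FMP10, a mitochondrial protein gene in V stretch 3, had the largest rise among the named genes, with 59.9, 64.9 and 64.6 CPM on day 4, against 5.87, 12.1 and 22.6 CPM on day 2 (2.21 ± 0.34, edgeR adjusted p = 0.000785). HYP2, which encodes the translation factor eIF5A, had 303, 277 and 393 CPM on day 4, against 101, 104 and 109 CPM on day 2 (1.63 ± 0.28, edgeR adjusted p = 0.00129). PRE1, a core proteasome subunit gene, had 35.3, 36.4 and 41.7 CPM on day 4, against 7.89, 5.99 and 17.4 CPM on day 2 (1.85 ± 0.32, edgeR adjusted p = 0.00162). None of these 3 genes overlapped between the days. ECM32, a helicase gene, fell to 26.6, 44.8 and 60.4 CPM on day 4, against 114, 183 and 144 CPM on day 2 (-1.74 ± 0.30, edgeR adjusted p = 0.00133). The glycolytic phosphoglycerate mutase gene GPM1 fell to 2077, 1609 and 1266 CPM on day 4, against 5152, 3131 and 4253 CPM on day 2 (-1.34 ± 0.31, edgeR adjusted p = 0.00794). The S. eubayanus GPM1 fell by 1.52 on the log2 scale (edgeR adjusted p = 0.0405).

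ALD5, which lies next to the first V break point, fell on its S. cerevisiae copy to 37.1, 61.4 and 66.6 CPM on day 4, against 74.2, 232 and 130.1 CPM on day 2 (-1.40 ± 0.36, edgeR adjusted p = 0.0141). This call was lost without day 2 replicate 2 or day 4 replicate 1. Among the other lists in this comparison, amino acid synthesis had 0 of 9 higher and 1 lower, glycolysis 0 of 9 and 1, sterol and fatty acid synthesis 0 of 5 and 0, nucleotide synthesis 0 of 8 and 1, and transport 1 of 7 and 0. Heat shock and stress had 0 of 6 higher and 0 lower, cell wall 2 of 10 and 1, the proteasome 2 of 2 and 0, translation 2 of 6 and 1, and the cell cycle 0 of 10 and 0. With library totals 1 sterol and fatty acid gene was higher, and the medians of amino acid and nucleotide synthesis changed sign, to 0.03 and 0.06 against -0.12 and -0.11. In the lists without a call in edgeR, 1 sterol and fatty acid gene, 4 heat shock and stress genes and 1 cell cycle gene had an unadjusted p under 0.05, and DESeq2 called 1, 0 and 1. RPT1, the second proteasome gene called, changed by 0.76 (edgeR adjusted p = 0.0329) and lost its call with the replicate number as a block (edgeR adjusted p = 0.0514).

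Between minimal medium and day 2, 243 of the 522 expressed-stretch features of CBS1538 11.1 changed, 121 higher and 122 lower in minimal medium. That is 46.6%, against 29.1% of all features and 45.0% of the features with at least 1 CPM in the strain (22.0% higher and 22.9% lower). Library totals gave 234 calls, 143 higher and 91 lower, so the balance of directions depended on the scaling. Without the raised libraries 174 were called, 161 of them shared with the full set. On silent stretches 34 of 609 were called (5.58%), 2 higher and 32 lower, and 5 without those libraries. V stretch 3 had 13 of 26 called, 3 higher and 10 lower, with a median of -0.65.

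Of 9 tested genes of amino acid synthesis, 5 fell and 1 rose in minimal medium and 3 were not called, with a median of -1.33, which was -1.16 with library totals. GLY1, the threonine aldolase gene that makes glycine, fell to 30.9, 22.8 and 40.4 CPM in minimal medium, against 525, 565 and 515 CPM on day 2 (-4.09 ± 0.28, edgeR adjusted p = 2.2e-07), and its S. eubayanus copy fell by 3.48. HOM3, the aspartate kinase gene that opens threonine and methionine synthesis, fell to 53.0, 42.6 and 71.2 CPM in minimal medium, against 298, 474 and 405 CPM on day 2 (-2.82 ± 0.30, edgeR adjusted p = 6.56e-06). ARO8 fell to 467, 535 and 754 CPM in minimal medium, against 2635, 2463 and 2972 CPM on day 2 (-2.20 ± 0.33, edgeR adjusted p = 0.000105). The 2 conditions did not overlap for these genes. CAN1, the arginine permease gene, fell to 24.9, 18.5 and 38.2 CPM in minimal medium, against 98.6, 155 and 121 CPM on day 2 (-2.20 ± 0.25, edgeR adjusted p = 1.14e-05).

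Among the genes that rose in minimal medium were those of a zinc-responsive enzyme, a zinc transporter and eIF5A. ADH4, a zinc-responsive alcohol dehydrogenase gene in VII stretch 1, had 2545, 2047 and 4006 CPM in minimal medium, against 76.9, 98.1 and 99.6 CPM on day 2 (4.97 ± 0.38, edgeR adjusted p = 5e-07). ZRT1, the high-affinity zinc transporter gene, had 1466, 1222 and 1774 CPM in minimal medium, against 181, 148 and 132 CPM on day 2 (3.27 ± 0.59, edgeR adjusted p = 0.000539). The wort was supplemented with 1 mM ZnSO4, and the part of this in the change was not tested. HYP2 had 1468, 1216 and 1164 CPM in minimal medium, against 101, 104 and 109 CPM on day 2 (3.61 ± 0.30, edgeR adjusted p = 8.51e-07), with its S. eubayanus copy up by 3.20. PIR1, a cell wall protein gene, had 249, 192 and 197 CPM in minimal medium, against 46.8, 39.7 and 50.3 CPM on day 2 (2.22, edgeR adjusted p = 0.00017). MTC7 had 192, 226 and 172 CPM in minimal medium, against 18.7, 12.2 and 13.4 CPM on day 2 (3.74 ± 0.27, edgeR adjusted p = 3.12e-07).

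PAU2, of a seripauperin family with near-identical copies whose counts are uncertain, had 25.4, 26.6 and 18 CPM in minimal medium, against 1.65, 0.200 and 0.395 CPM on day 2 (5.17 ± 0.59, edgeR adjusted p = 1.17e-05). PHM8, a phosphate-starvation phosphatase gene, fell to 2.45, 1.61 and 1.32 CPM in minimal medium, against 20.2, 31.6 and 32.0 CPM on day 2 (-3.96 ± 0.28, edgeR adjusted p = 3.12e-07). ALD5 fell by 3.53 (edgeR adjusted p = 8.25e-06) and ATG1, the kinase gene that starts autophagy, by 3.27 (edgeR adjusted p = 2.53e-05). VEL1 had a log2 change of 3.97 ± 1.07 (edgeR adjusted p = 0.0102), which was lost without day 2 replicate 2.

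Respiration had 5 of 13 tested genes higher and 2 lower in minimal medium, with a median of 0.38. COX13 had 230.1, 255 and 132 CPM in minimal medium (2.39, edgeR adjusted p = 7.39e-05), and COX4, another cytochrome c oxidase subunit gene, 150.2, 141 and 108 CPM, against 34.9, 26.7 and 29.4 CPM on day 2 (2.14, edgeR adjusted p = 7.34e-05). Glycolysis had 1 of 9 higher and 4 lower, or 2 higher and 2 lower with library totals and 1 and 1 without the raised libraries. Sterol and fatty acid synthesis had 2 of 5 higher and 0 lower, among them the fatty acid synthase gene FAS1 with 896, 899.7 and 1155 CPM in minimal medium, against 451, 509 and 356 CPM on day 2 (1.16, edgeR adjusted p = 0.00163). Nucleotide synthesis had 2 of 8 higher and 3 lower, transport 3 of 7 and 3, heat shock and stress 0 of 6 and 2, cell wall 3 of 10 and 1, the proteasome 0 of 2 and 0, translation 2 of 6 and 0, and the cell cycle 0 of 10 and 1. Of the 2 proteasome genes, 1 had an unadjusted p under 0.05 in edgeR and 1 was called by DESeq2.

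Between minimal medium and day 4, 214 of the 522 features changed, 91 higher and 123 lower, which is 41.0%, against 28.2% of all features and 45.3% of those with at least 1 CPM (21.3% higher and 24.0% lower). This comparison does not use the day 2 libraries of uncertain strain, though they entered the fit. With the compared groups alone in the fit, 280 of 482 tested features were called, 140 higher and 140 lower, 212 of them shared, so the excess of lower calls depended on the libraries in the fit. It shares the minimal medium libraries with the comparison against day 2. Without the raised libraries 189 were called, 182 of them shared with the full set, and on silent stretches 3 in place of 9 (1.48% of 609). ADH4 rose by 4.26 ± 0.36 (edgeR adjusted p = 1.4e-06), against 181, 139 and 128 CPM on day 4. PHM8 was lower by 5.06 ± 0.30 (edgeR adjusted p = 1.03e-07; 55.0, 60.1 and 65.1 CPM on day 4). EBP2, a ribosome assembly gene, had 31.9, 67.5 and 22.5 CPM in minimal medium, against 2.41, 3.29 and 5.19 CPM on day 4 (3.47 ± 0.46, edgeR adjusted p = 4.51e-05), and MPT5, an RNA-binding repressor gene, fell to 9.29, 7.06 and 9.63 CPM in minimal medium, against 151, 148 and 144 CPM on day 4 (-4.09 ± 0.29, edgeR adjusted p = 3.75e-07).

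Amino acid synthesis had 0 of 9 genes higher and 6 lower in this comparison, with a median of -1.39. GLC3, the glycogen branching enzyme gene, fell to 135, 138 and 137 CPM in minimal medium, against 594, 618 and 544 CPM on day 4 (-2.10, edgeR adjusted p = 0.000896). HAP4, an activator of respiratory genes, fell to 86.9, 61.4 and 62.9 CPM in minimal medium, against 223, 201 and 225 CPM on day 4 (-1.62, edgeR adjusted p = 0.000338), and the respiration list had 1 of 13 higher and 5 lower. TEF4, a translation elongation factor gene, had 364, 301 and 549.6 CPM in minimal medium, against 160.1, 113 and 95 CPM on day 4 (1.72, edgeR adjusted p = 0.000614), and translation had 2 of 6 higher and 0 lower. Glycolysis had 3 of 9 higher and 2 lower, sterol and fatty acid synthesis 1 of 5 and 0, nucleotide synthesis 3 of 8 and 3, and transport 2 of 7 and 2. Heat shock and stress had 1 of 6 higher and 3 lower, cell wall 3 of 10 and 2, the proteasome 0 of 2 and 2, and the cell cycle 0 of 10 and 1.

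In W34/70 9.7, where the 3 chromosomes were expressed along their whole length, 320 of 1131 members changed between day 4 and day 2, 203 higher and 117 lower. That is 28.3%, against 28.6% of all features (16.1% higher and 12.5% lower) and 29.8% of those with at least 1 CPM in the strain. With library totals the calls were 425, 381 higher and 44 lower, and the balance of directions followed the scaling. Leaving out single libraries gave 214 to 337 calls. With both libraries low in S. eubayanus VII left out, 343 were called, 281 of them shared with the full set. By chromosome, 82 of 280 features on V, 128 of 524 on VII and 110 of 327 on XI were called.

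Of 18 tested genes of glycolysis, fermentation and storage sugars, 7 fell and 0 rose in W34/70 9.7 by day 4 and 11 were not called, with a median of -0.86. With library totals 7 were lower and 1 higher, with a median of -0.43. TDH3, the main glyceraldehyde-3-phosphate dehydrogenase gene, fell to 6227, 4503 and 4398 CPM on day 4, against 24096, 20078 and 16637 CPM on day 2 (-2.01 ± 0.47, edgeR adjusted p = 0.00563). ENO1 fell to 11596, 7433 and 7664 CPM on day 4, against 29097, 26159 and 33241 CPM on day 2 (-1.73 ± 0.44, edgeR adjusted p = 0.00967). Both genes lie in VII stretch 2, whose S. cerevisiae copies were silent in CBS1538 11.1. UGP1, which makes the UDP-glucose used for storage sugars, fell to 712, 711 and 828 CPM on day 4, against 2408, 1813 and 1947 CPM on day 2 (-1.45, edgeR adjusted p = 0.000506). ARO8 fell to 862, 1237 and 1161 CPM on day 4, against 3521, 1624 and 4369 CPM on day 2 (-1.54 ± 0.32, edgeR adjusted p = 0.00288), and amino acid synthesis had 1 of 23 higher and 7 lower, or 2 and 2 with library totals.

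DAL80, a repressor of nitrogen-use genes in XI stretch 2, had 4.58, 2.61 and 60.3 CPM on day 4, against 0.438, 0.744 and 0.461 CPM on day 2 (5.31 ± 1.11, edgeR adjusted p = 0.00322). The day 4 libraries did not overlap with day 2, but day 4 replicate 3 was far above the other 2. BTN2, a gene of protein sorting and aggregate handling, had 187, 1824 and 810.3 CPM on day 4, against 89.2, 44.3 and 112 CPM on day 2 (3.52 ± 0.86, edgeR adjusted p = 0.00889). COG7, a Golgi transport gene, had 65.2, 64.4 and 72.2 CPM on day 4, against 9.75, 13.0 and 5.07 CPM on day 2 (2.85 ± 0.32, edgeR adjusted p = 0.000443). CYC7, the cytochrome c isoform of low oxygen, had 266, 396 and 359 CPM on day 4, against 77.0, 93.1 and 80.8 CPM on day 2 (2.02, edgeR adjusted p = 0.000665). TIR1, a cell wall mannoprotein gene of cold and low oxygen, fell to 532, 408 and 531 CPM on day 4, against 1933, 2404 and 745 CPM on day 2 (-1.79 ± 0.34, edgeR adjusted p = 0.00191).

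Respiration had 5 of 18 genes higher and 3 lower in W34/70 9.7 on day 4, the proteasome 4 of 11 and 0, and the cell cycle 6 of 21 and 3. RAD6, a ubiquitin-conjugating enzyme gene, had 159, 120.2 and 85.7 CPM on day 4, against 25.4, 34.3 and 22.3 CPM on day 2 (2.15, edgeR adjusted p = 0.00517). Sterol and fatty acid synthesis had 0 of 15 higher and 0 lower, nucleotide synthesis 0 of 11 and 2, transport 0 of 20 and 2, heat shock and stress 0 of 9 and 0, cell wall 1 of 20 and 1, and translation 0 of 12 and 2. These counts depended on the scaling. With library totals respiration had 9 higher and 2 lower, the proteasome 6 and 0, the cell cycle 10 and 0, sterol and fatty acid synthesis 2 and 0, and nucleotide synthesis 2 and 0. Transport then had 2 higher and 0 lower, heat shock and stress 4 and 0, cell wall 6 and 1, and translation 1 and 2. In the lists without a call in edgeR, 2 sterol and fatty acid genes and 0 heat shock and stress genes had an unadjusted p under 0.05, and DESeq2 called 1 in each list. The medians of amino acid synthesis, nucleotide synthesis, transport and translation were -0.52, -0.46, -0.19 and -0.32, and -0.07, -0.03, 0.21 and 0.11 with library totals, so those of transport and translation changed sign. Without both libraries low in S. eubayanus VII, glycolysis had 2 higher and 8 lower, and amino acid synthesis 1 and 9. The cell cycle then had 3 and 3, respiration 6 and 3, transport 2 and 2, and cell wall 2 and 1. Nucleotide synthesis had 1 and 2, and sterol and fatty acid synthesis 1 and 0. The medians of respiration and cell wall changed sign, to -0.0047 and -0.068 against 0.14 and 0.27.

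Between minimal medium and day 2, 650 of 1131 members changed in W34/70 9.7, 331 higher and 319 lower, which is 57.5%, against 55.8% of all features (28.8% higher and 27.0% lower) and 57.5% of those with at least 1 CPM. Library totals gave 655 calls, 435 higher and 220 lower, and 677 were called with those libraries left out, 615 of them shared. XI stretch 1 had 12 of 20 features called, 1 higher and 11 lower, and V stretch 3 had 19 of 26, 5 higher and 14 lower.

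Of 18 tested genes of glycolysis, fermentation and storage sugars, 12 fell and 2 rose in minimal medium and 4 were not called, with a median of -1.63. ENO1 fell to 889.8, 826 and 536 CPM in minimal medium, against 29097, 26159 and 33241 CPM on day 2 (-5.30, edgeR adjusted p = 1.09e-06). GLC3 fell to 22.7, 20.7 and 17.0 CPM in minimal medium, against 1755, 618 and 1426 CPM on day 2 (-5.97 ± 0.48, edgeR adjusted p = 1.98e-07). SPI1, a cell wall protein gene of weak-acid stress in V stretch 2, fell to 12.8, 7.28 and 6.18 CPM in minimal medium, against 2560, 1207 and 3143 CPM on day 2 (-8.04 ± 0.87, edgeR adjusted p = 2.92e-06), and its S. eubayanus copy fell by 6.22. RGI1, a gene of energy metabolism, fell to 19.8, 22.6 and 13.6 CPM in minimal medium, against 1802, 534 and 1229 CPM on day 2 (-5.99 ± 0.48, edgeR adjusted p = 1.76e-07). TIR1 fell to 15.8, 12.4 and 15.7 CPM in minimal medium, against 1933, 2404 and 745 CPM on day 2 (-6.85 ± 0.43, edgeR adjusted p = 2.24e-08). OLE1 fell to 525, 424 and 655 CPM in minimal medium, against 5737, 6005 and 4211 CPM on day 2 (-3.31, edgeR adjusted p = 0.000152).

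Among called genes with a symbol, at least 16 CPM and no overlap, the 4 largest rises in W34/70 9.7 were those of ZRT1, DAL80, GAP1 and MIG2. ZRT1 had 5417, 4559 and 5394 CPM in minimal medium, against 51.9, 197 and 37.5 CPM on day 2 (5.75 ± 0.66, edgeR adjusted p = 4.8e-06). DAL80 had 34.9, 67.6 and 30.6 CPM in minimal medium, against 0.438, 0.744 and 0.461 CPM on day 2 (6.30 ± 1.14, edgeR adjusted p = 0.000269). GAP1, the first gene after the second XI break point of CBS1538 11.1, had 108, 137 and 106 CPM in minimal medium, against 5.48, 8.00 and 3.00 CPM on day 2 (4.40 ± 1.16, edgeR adjusted p = 0.00922), with its S. eubayanus copy up by 2.43. MIG2, a glucose-dependent repressor gene, had 134, 137 and 166 CPM in minimal medium, against 6.35, 9.49 and 5.54 CPM on day 2 (4.35 ± 0.37, edgeR adjusted p = 3.02e-07). Lack of overlap was part of the choice of these 4 genes.

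Amino acid synthesis had 4 of 23 genes higher and 9 lower in this comparison. ARO8 fell to 569, 652 and 507 CPM in minimal medium (-2.46, edgeR adjusted p = 1.86e-05), and SER2, the last enzyme gene of serine synthesis, had 84.0, 92.2 and 90.5 CPM in minimal medium, against 18.8, 18.2 and 8.30 CPM on day 2 (2.55). Heat shock and stress had 2 of 9 higher and 6 lower, transport 3 of 20 and 7, sterol and fatty acid synthesis 0 of 15 and 4, and cell wall 5 of 20 and 8. The proteasome had 6 of 11 higher and 1 lower, the cell cycle 11 of 21 and 3, respiration 5 of 18 and 6, nucleotide synthesis 4 of 11 and 2, and translation 4 of 12 and 2. With library totals the medians of sterol and fatty acid synthesis, respiration and cell wall changed sign, to 0.10, 0.14 and 0.13 against -0.29, -0.24 and -0.24.

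Between minimal medium and day 4, 508 of 1131 members changed in W34/70 9.7, 215 higher and 293 lower, which is 44.9%, against 43.1% of all features (20.2% higher and 23.0% lower) and 44.3% of those with at least 1 CPM. Without the same 2 libraries 531 were called, 474 of them shared. SPI1 fell by 8.50 ± 0.89 (edgeR adjusted p = 4.22e-06), with 1654, 3008 and 4867 CPM on day 4. PHM8 fell to 2.91, 1.70 and 2.21 CPM in minimal medium, against 101, 112 and 119 CPM on day 4 (-5.59 ± 0.30, edgeR adjusted p = 9.19e-09). YHB1, a nitric oxide oxidoreductase gene, had 983, 1251 and 865 CPM in minimal medium, against 149.8, 137 and 169.8 CPM on day 4 (2.76, edgeR adjusted p = 0.000245). Glycolysis had 3 of 18 higher and 10 lower, amino acid synthesis 6 of 23 and 5, sterol and fatty acid synthesis 0 of 15 and 3, respiration 4 of 18 and 5, nucleotide synthesis 6 of 11 and 1, and transport 2 of 20 and 5. Heat shock and stress had 2 of 9 higher and 5 lower, cell wall 5 of 20 and 7, the proteasome 1 of 11 and 1, translation 6 of 12 and 1, and the cell cycle 5 of 21 and 1.

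Some S. cerevisiae copies answered a condition differently in the 2 strains. The difference of the changes, CBS1538 11.1 minus W34/70 9.7, was tested in the same edgeR fit. Among expressed-stretch features it was called for 13 (4 positive, 9 negative) between day 4 and day 2, for 120 (60 and 60) between minimal medium and day 2 and for 78 (34 and 44) between minimal medium and day 4. These are 2.49%, 23.0% and 14.9% of the 522, against 1.54%, 15.0% and 10.4% of all features, a background that includes many features silent in CBS1538 11.1. Between minimal medium and day 2, TIR1 averaged 733 ± 132 CPM in minimal medium and 859 ± 153 CPM on day 2 in CBS1538 11.1, against 14.6 ± 1.96 and 1694 ± 855 CPM in W34/70 9.7 (SD, n = 3), a difference of 6.62 ± 0.52 (edgeR adjusted p = 8.4e-07). UTR2, a cell wall crosslinking enzyme gene, averaged 24.3 ± 4.64 CPM in minimal medium and 27.1 ± 1.77 CPM on day 2 in CBS1538 11.1, against 360.2 ± 87.9 and 30.2 ± 8.10 CPM in W34/70 9.7, a difference of -3.73 ± 0.40 (edgeR adjusted p = 1.45e-05).

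CYC7 had 43.8 CPM in minimal medium and 16.1 CPM on day 4 in CBS1538 11.1, against 9.78 and 340.3 CPM in W34/70 9.7, a difference of 6.56 ± 0.49 (edgeR adjusted p = 9.87e-07). ZRT1 averaged 1487 ± 277 CPM in minimal medium and 195 ± 9.40 CPM on day 4 in CBS1538 11.1, against 5123 ± 489 and 80.2 ± 63.5 CPM in W34/70 9.7, a difference of -3.06 ± 0.78 (edgeR adjusted p = 0.0189). ZRT1 thus rose in both strains and by less in CBS1538 11.1. Between day 4 and day 2, PRB1, a vacuolar protease gene, had 1052 CPM on day 4 and 531 CPM on day 2 in CBS1538 11.1, against 721 and 1239 CPM in W34/70 9.7, a difference of 1.77 ± 0.30 (edgeR adjusted p = 0.0117). TAN1, a tRNA acetylation gene, had 4.54 CPM on day 4 and 4.65 CPM on day 2 in CBS1538 11.1, against 54.9 and 9.76 CPM in W34/70 9.7, a difference of -2.55 ± 0.44 (edgeR adjusted p = 0.012).

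**Figure D4:**
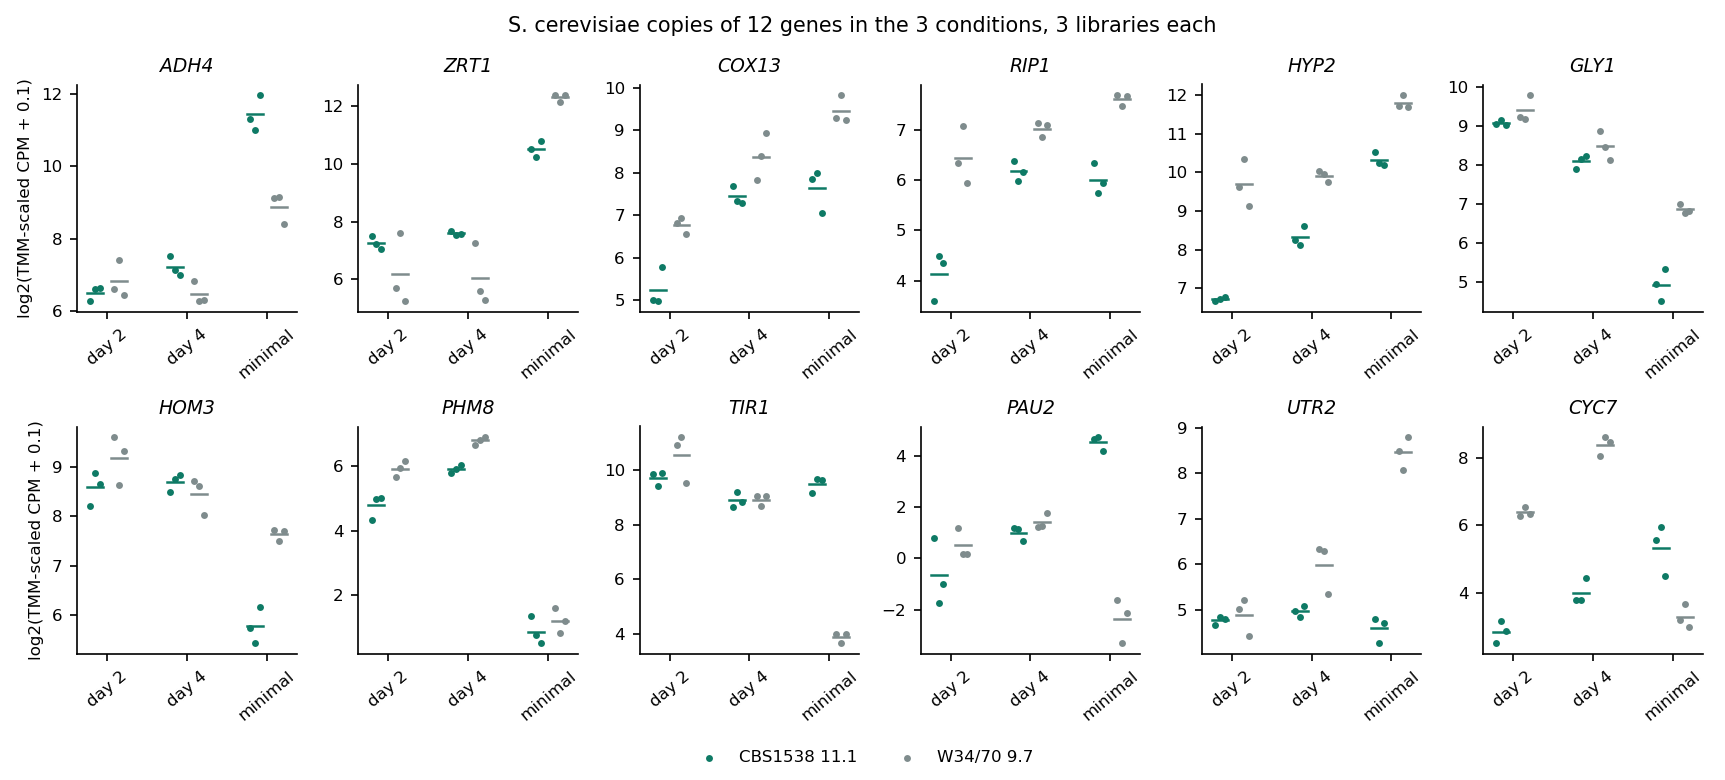
TMM-scaled level of the S. cerevisiae copies of 12 named genes on a log2(CPM + 0.1) scale, 1 point per library with a bar at the group mean, CBS1538 11.1 in green and W34/70 9.7 in grey, in the 3 conditions. ADH4, ZRT1 and HYP2 are highest and GLY1, HOM3 and PHM8 lowest in minimal medium in both strains, while TIR1, PAU2, UTR2 and CYC7 differ in their change between the strains.

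Both copies of a gene can be compared within a library. The CPM values given with ratio changes are scaled to library totals, without TMM, and so differ from those above. A change of the ratio between copies was tested with edgeR on the counts of both copies, with the library as a term, over pairs with at least 5 CPM on each copy. In CBS1538 11.1, 65 of 253 pairs of the 3 chromosomes changed their ratio between day 4 and day 2, in 37 towards the S. cerevisiae copy. That is 25.7%, against 25.3% of all 900 pairs. Between minimal medium and day 2, 88 changed (34.8% against 35.9%), and between minimal medium and day 4, 87 (34.4% against 34.4%), shares close to those of all pairs. The day 4 count was 42, 37 or 30 without day 4 replicate 1, 2 or 3.

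RAD23, a gene of DNA repair and proteasome delivery in V stretch 1, shifted towards the S. cerevisiae copy by day 4 in CBS1538 11.1. Its S. cerevisiae copy had 45.4, 60.3 and 62.7 CPM on day 4, against 31.3, 21.9 and 31.9 CPM on day 2, while its S. eubayanus copy had 134, 173 and 159 CPM on day 4, against 231, 225 and 217 CPM on day 2 (log2 change of the ratio 1.52 ± 0.20, edgeR adjusted p = 0.000372). The copies moved in opposite directions, without overlap between the days. In W34/70 9.7 the S. cerevisiae RAD23 had 97.4, 79.4 and 62.7 CPM on day 4, against 54.0, 70.9 and 50.3 CPM on day 2, and the S. eubayanus RAD23 33.4, 28.5 and 23.1 CPM on day 4, against 64.6, 65.2 and 59.5 CPM on day 2 (1.62 ± 0.14, edgeR adjusted p = 0.00321). ARC19, a subunit of the actin-nucleating Arp2/3 complex in XI stretch 2, shifted the other way in both strains, by -1.52 ± 0.46 in CBS1538 11.1 (edgeR adjusted p = 0.0278) and by -1.23 ± 0.14 in W34/70 9.7 (edgeR adjusted p = 0.00653). The S. eubayanus ARC19 had 56.9, 56.2 and 60.8 CPM on day 4, against 7.22, 19.7 and 26.7 CPM on day 2 in CBS1538 11.1, where the S. cerevisiae copy had 52.2, 42.5 and 41.7 CPM on day 4, against 54.1, 28.5 and 38.2 CPM on day 2.

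In minimal medium relative to day 2, ALD5 lost most on its S. cerevisiae copy, with 17.4, 18.1 and 13.1 CPM in minimal medium, against 76.7, 265 and 150.1 CPM on day 2, where the S. eubayanus copy had 103, 75.5 and 62.3 CPM in minimal medium, against 79.4, 186 and 169.6 CPM on day 2 (-2.40 ± 0.21, edgeR adjusted p = 4.46e-06). MXR1, a methionine sulfoxide reductase gene, gained on its S. cerevisiae copy (3.38 ± 0.47, edgeR adjusted p = 0.000135). That copy had 25.1, 21.2 and 12.3 CPM in minimal medium, against 0, 0.912 and 1.37 CPM on day 2. The S. eubayanus copy had 72.5, 75.9 and 43.6 CPM in minimal medium, against 32.7, 25.4 and 31.7 CPM on day 2. The day 2 values of the S. cerevisiae MXR1 lay near or under the 1 CPM set for expressed, so the size of its change is uncertain. XRN1, the last gene before the VII break point, changed by 3.24 ± 0.31 (edgeR adjusted p = 8.42e-06), where its S. eubayanus copy had 4.52, 1.49 and 2.72 CPM in minimal medium, against 23.2, 41.6 and 30.9 CPM on day 2. The S. cerevisiae XRN1 had 275, 369.5 and 345 CPM in minimal medium, against 312, 432 and 341 CPM on day 2, so the shift came from the S. eubayanus counts. Whether those counts came from a separate S. eubayanus copy was not tested. HMF1, of a conserved family of enamine deaminases, changed its ratio between minimal medium and day 4 by 2.00 ± 0.20 (edgeR adjusted p = 1.66e-05), with 88.3, 111 and 98.7 CPM in minimal medium, against 47.7, 40.8 and 43.0 CPM on day 4 on the S. cerevisiae copy and 303, 388 and 294 CPM in minimal medium, against 529, 564 and 639 CPM on day 4 on the S. eubayanus copy.

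**Figure D5:**
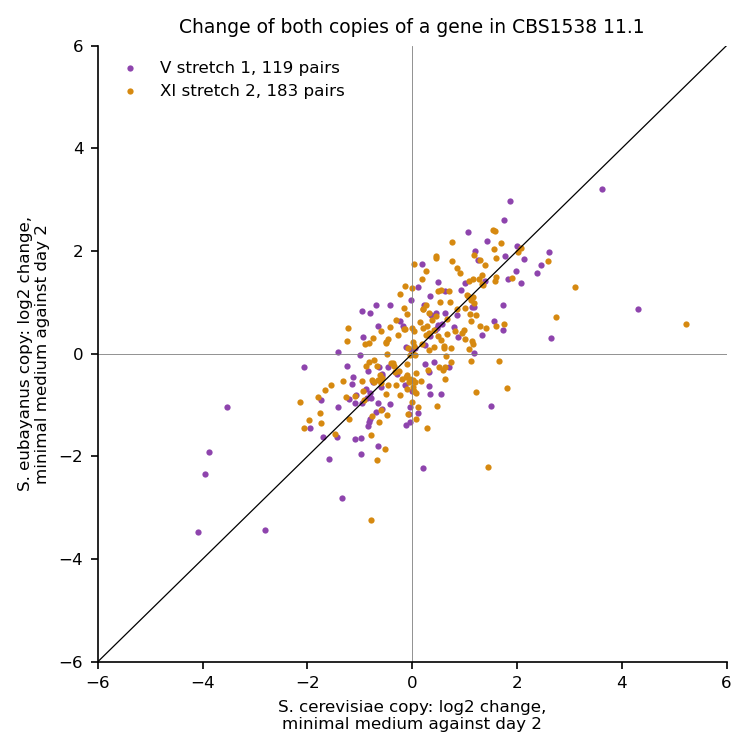
Log2 change between minimal medium and day 2 in CBS1538 11.1 of the S. cerevisiae copy (x axis) and the S. eubayanus copy (y axis) of each same-named pair, 119 pairs of V stretch 1 in purple and 183 pairs of XI stretch 2 in orange. The line marks equal change, and GLY1 at -4.09 and -3.48 is the pair farthest to the lower left.

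In W34/70 9.7, 50 of 615 pairs changed their ratio between day 4 and day 2 (8.13% against 10.5% of all 3786 pairs), 110 between minimal medium and day 2 (17.9% against 28.3%) and 61 between minimal medium and day 4 (9.92% against 13.1%). In the edgeR fit with all libraries, 0 of the 305 pairs tested on VII were called in any of the 3 comparisons, and 0 had an unadjusted p under 0.05. That fit includes the 2 libraries without S. eubayanus VII. Without those libraries 142 of 627 pairs were called between day 4 and day 2, 22.6% against 20.3% of all pairs. Between minimal medium and day 2, 288 were called (45.9% against 42.4%), and between minimal medium and day 4, 171 (27.3% against 24.2%). On VII these numbers were 73, 146 and 81 of 315 pairs. DAL80 had the largest shift, 3.72 ± 0.54 between day 4 and day 2 (edgeR adjusted p = 0.00968), with 4.55, 2.33 and 53.5 CPM on day 4, against 0.266, 0.579 and 0.313 CPM on day 2 on the S. cerevisiae copy and 5.11, 4.66 and 28.2 CPM on day 4, against 5.66, 7.01 and 3.29 CPM on day 2 on the S. eubayanus copy. MET14, which activates sulfate for methionine synthesis, had 569, 629 and 663 CPM in minimal medium, against 159.7, 282 and 126 CPM on day 4 on its S. cerevisiae copy and 108, 123 and 137 CPM in minimal medium, against 134, 150.5 and 109 CPM on day 4 on its S. eubayanus copy (1.88, edgeR adjusted p = 0.00808).

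Over the 323 pairs of CBS1538 11.1 with both copies tested in the fit of single features, both copies were called in the same direction for 32 between day 4 and day 2, 90 between minimal medium and day 2 and 86 between minimal medium and day 4. They were called in opposite directions for 1, 4 and 2. The S. cerevisiae copy alone was called for 56, 52 and 44, the S. eubayanus copy alone for 60, 63 and 73, and neither for 174, 114 and 118. A call on 1 copy alone does not show that the copies differed, and the test of the ratio gives that difference. The 323 pairs include some with 1 copy silent in CBS1538 11.1, such as DNF1 and SMY1. Those were tested because the filter on low counts used the libraries of both strains. They could hardly be called on both copies, so they add to the counts for 1 copy alone and for neither. The same counts over all pairs are not given.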

How the data were processed

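Libraries from total RNA were read in pairs of 150 bp, per the labels. The authors deposited 1 table of raw counts, not normalised, whose features come from both sub-genomes. Per the submitters' processing notes, STAR, SAMtools, featureCounts and DESeq2 were used with build R64, an S. cerevisiae build. Versions, the S. eubayanus assembly, the use of strand and the treatment of reads that match both copies are not given in these sources. Near-identical genes and overlapping antisense genes are therefore uncertain. Coordinates are those of the deposited table. All count columns were used (0 left out).

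The 18 libraries were grouped by title into 6 groups of 3. Cultures were grown in triplicate, per the labels, and p-values measure the spread between these libraries. Replicates were compared for duplicates, and the lowest chi-square per degree of freedom of any pair was 17.1. The chromosomes, gene lists and tests were chosen with earlier results of these data known, and 11 lists of functions were used.

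Break points were found on CPM of library totals with a threshold of 1 CPM, a cost of 5 misfits per switch and features of at least 5 CPM in the other strain. For S. eubayanus chromosomes, features were also chosen by their S. cerevisiae copy, and short runs of at least 3 features were sought, both added after seeing the data. Changes were tested in R 4.3.3 with edgeR 4.0.16 (quasi-likelihood, TMM factors, minimum count 10, minimum total 15, 1 fit over 18 libraries). The ratio test used pairs with at least 10 counts and 5 CPM per copy. DESeq2 1.42.0 was an alternative. Each procedure was tested on simulated data.

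Named genes are the 3 features nearest to each break point on each side, the 4 largest rises and falls per comparison among called members with a symbol, 16 CPM or more in the higher group and no overlap, the 3 largest ratio changes each way, the 5 highest features on silent stretches, and up to 3 genes per list. From these the text gives a selection. Genes of the short run on XI, genes named for their level on silent or expressed stretches and genes named for a strain difference of their change were chosen after their values were seen. Replicate numbers are shared between groups. Between day 4 and day 2 of CBS1538 11.1, same-numbered libraries deviated together (correlations 0.110 to 0.328, each highest with its own number). The number may therefore pair them, which was not tested. The fit without the block gives the values in the text, and the fit with it was an alternative.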

Additional observations from a re-analysis of the deposited data

Results flagged for a closer look

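The change of an S. cerevisiae copy between conditions differed between the strains for some of the 522 tested features on expressed stretches, by the edgeR test of the difference of changes. Between day 4 and day 2 this held for 13 features, between minimal medium and day 2 for 120 and between minimal medium and day 4 for 78. These are 2.49%, 23.0% and 14.9% of the 522, against 1.54%, 15.0% and 10.4% of all features tested. That background includes many features silent in CBS1538 11.1. The features with values in the report are TIR1, UTR2, CYC7, ZRT1, PRB1 and TAN1. PAU2 had 23.4 CPM in minimal medium and 0.749 CPM on day 2 in CBS1538 11.1, against 0.117 and 1.42 CPM in W34/70 9.7, a difference of 8.59 ± 0.90 on the log2 scale (edgeR adjusted p = 1.25e-05), with the limit that its family has near-identical copies. FAT3, a fatty acid uptake gene, had 14.4 CPM in minimal medium and 2.84 CPM on day 4 in CBS1538 11.1, against 19.5 and 248 CPM in W34/70 9.7, a difference of 6.01 ± 0.83 (edgeR adjusted p = 0.000218). The 3 comparisons share libraries, and those with day 2 use the day 2 libraries of CBS1538 11.1 whose strain label is in doubt.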

How the results depend on the processing

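With 5 CPM as the level for expressed, the VII break point was placed at 173285 and the first XI break point at 63930. XI had 4 break points with a cost of 3 misfits, and V had 3 when all features were used. The V, VII and XI positions did not move in any of the sets of 8 libraries. Each library was placed on its own and nearly all agreed, so leaving out 1 library could not move a shared position. At 0.5 CPM, 57.0% of V and 63.4% of XI features were expressed in CBS1538 11.1, and 84.7%, 88.9% and 92.5% of V, VII and XI in W34/70 9.7. At 5 CPM the shares were 45.6%, 13.9% and 48.5% in CBS1538 11.1 and 75.6%, 81.4% and 84.8% in W34/70 9.7. The shares follow from the level set for expressed, and the cause of the other shifts was not tested.

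With both W34/70 9.7 libraries low in S. eubayanus VII, the S. eubayanus difference in VII stretch 2 was 3.47. With a pseudocount of 1 CPM the S. eubayanus differences were -4.10 in V stretch 3, 6.95 in XI stretch 1 and 5.48 in XI stretch 2 with the partner silent in W34/70 9.7. With TMM factors the S. eubayanus differences were 1.25, 1.47 and -7.52 in V stretches 1 to 3, 1.24 in VII stretch 2, 9.95 in XI stretch 1, 8.40 and 0.61 in XI stretch 2 and 0.68 in XI stretch 3. The sums were then 0.11, -0.15 and -0.0079 in V stretches 1 to 3, -0.59 and -0.74 in VII stretches 1 and 2, -0.56 in XI stretch 1, -0.76 and -0.69 in XI stretch 2 and -1.22 in XI stretch 3. With at least 5 CPM for the S. eubayanus copy in both strains, V stretch 3 kept 1 pair, CHD1, with 0.40 for the S. eubayanus copy and 0.86 for the sum. Leaving out 1 library moved these differences by little: the sum in V stretch 1 ranged from 0.66 to 0.74 and the S. eubayanus copy in VII stretch 2 from 1.80 to 1.87.

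Leaving out 1 library gave 83 to 174, 207 to 283 and 185 to 280 called members in CBS1538 11.1 (day 4 against day 2, minimal medium against day 2 and against day 4), and 214 to 337, 557 to 623 and 389 to 452 in W34/70 9.7. It gave 30 to 68, 74 to 109 and 63 to 74 changed ratios in CBS1538 11.1, and 10 to 46, 65 to 109 and 17 to 46 in W34/70 9.7. Without the 2 raised libraries, 179 members were called between minimal medium and day 2 in CBS1538 11.1. Without both libraries low in S. eubayanus VII, 142, 288 and 171 ratios changed in W34/70 9.7. Apart from the use of fewer libraries, the cause was not tested.

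With the replicate number as a block, 111, 243 and 219 members were called in CBS1538 11.1 and 272, 610 and 461 in W34/70 9.7, against 144, 277, 223, 320, 650 and 508 without the block. Outside day 4 against day 2 in CBS1538 11.1, the libraries of a comparison did not all correlate most with their own number. Of 188 named calls, 161 held under every alternative, and of 2336 alternative values 84 were no longer past the threshold and 0 changed sign. At the lowest depth of 5266324 counts, features under 1 CPM rest on 5 counts or fewer, which limits what silence means for weak genes.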
